A study of Mus musculus with 3 samples.

Results

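The Grem1 and Fmn1 interval of mouse chromosome 2 was examined for GLI3 binding in E10.5 forelimb buds. Its members were all peaks of a GLI3 ChIP-seq peak list with a summit between 113.2 and 114.3 Mb (mm10), a stretch of 1.1 Mb that holds Grem1, Fmn1, Scg5 and neighbouring genes. This gave 11 of the 17149 listed peaks. Of these 11, 6 had a false discovery rate (FDR) under 0.05 and are called GLI3 peaks here, out of 7282 over the whole list. The 11 peaks were numbered 1 to 11 by position, and the GLI3 peaks were peaks 5, 6, 7, 8, 9 and 11.

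The material was whole forelimb buds of embryos with 32 to 35 somites on a mixed strain background. The study describes an endogenous Gli3 allele carrying an N-terminal 3XFLAG tag, so that the chromatin bound by GLI3 could be precipitated with an antibody to FLAG, whereas the genotype label of all 3 libraries reads wild type. For each of the 2 ChIP replicates the buds of 2 litters were pooled. Input chromatin gave 1 further library, and no library without the tag or with a changed HH pathway was compared here. The authors combined the libraries into 1 list that holds no values per replicate, so no value below carries a replicate error. The list gives no read totals, and the study's methods state only a minimum number of reads, so the reads behind each peak are unknown here. Since buds were pooled whole, strong binding in few cells and weak binding in many cells cannot be told apart, and the list gives no values for anterior and posterior cells separately. The embryonic tissue itself could not be checked against marker genes, because binding and not expression was measured.

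GLI3 is one of the transcription factors through which the Hedgehog (HH) pathway acts. Without the ligand SHH it is processed into a repressor of HH target genes, and SHH, which is made in the posterior limb bud, limits this processing. Grem1 encodes GREMLIN1, a secreted antagonist of BMP ligands in the limb bud mesenchyme. It keeps BMP activity low enough for the overlying ectodermal ridge to go on making FGFs, which in turn maintain Shh, and Grem1 is a known HH target in this tissue. Fmn1 encodes formin 1, an actin-nucleating protein, and its long gene body is known to house distant regulatory elements of Grem1. Scg5 encodes secretogranin V (7B2), a chaperone of a prohormone convertase in neuroendocrine cells. The N-terminal tag is kept in full-length GLI3 and in its repressor form, and the list gives no values by form.

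The sequences that the account turns on are shown first, all read from the GRCm38.p6 assembly (mm10). The highest-ranked peak of the interval, peak 7, and the only GLI3 peak in it with a match to the GLI consensus, is shown as 300 bases around its summit at chr2:113640838-113641137 on the plus strand, with the match in capitals.
peak 7: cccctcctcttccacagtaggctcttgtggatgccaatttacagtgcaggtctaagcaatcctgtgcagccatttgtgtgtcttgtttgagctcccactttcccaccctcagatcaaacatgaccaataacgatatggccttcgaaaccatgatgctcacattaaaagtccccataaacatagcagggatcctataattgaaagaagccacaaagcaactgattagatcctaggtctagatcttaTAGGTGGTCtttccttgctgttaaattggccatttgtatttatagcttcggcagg
The matches themselves are shown with 25 bases to each side, in the orientation of the consensus GACCACCCA and with the match in capitals. That of peak 7 lay on the minus strand (chr2:113641058-113641116), and that of peak 1, a listed peak that missed the FDR threshold, on the plus strand (chr2:113440395-113440453).
peak 7 match: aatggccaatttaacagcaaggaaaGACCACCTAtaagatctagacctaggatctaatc
peak 1 match: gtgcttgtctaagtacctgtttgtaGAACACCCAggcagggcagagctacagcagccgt
The summit regions of 2 further GLI3 peaks are shown on the plus strand with the 11 bases centred on the summit in capitals. Peak 9 (chr2:113692087-113692237) was the GLI3 peak nearest to the Grem1 start site, and peak 11 (chr2:113848937-113849087) was the only one at a promoter.
peak 9: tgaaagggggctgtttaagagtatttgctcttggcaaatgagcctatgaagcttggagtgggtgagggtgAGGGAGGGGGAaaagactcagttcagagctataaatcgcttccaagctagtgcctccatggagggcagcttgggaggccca
peak 11: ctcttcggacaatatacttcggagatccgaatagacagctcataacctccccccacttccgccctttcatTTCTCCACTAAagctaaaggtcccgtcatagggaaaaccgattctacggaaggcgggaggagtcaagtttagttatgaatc
The promoters of Grem1 (chr2:113758599-113758898) and Scg5 (chr2:113829042-113829341) are shown as RefSeq gives their start sites, from 250 bases before to 50 after the start and on the minus strand, since neither was overlapped by a listed peak. The capitals in the Scg5 promoter mark a match to the GLI consensus with 1 mismatch.
Grem1 promoter: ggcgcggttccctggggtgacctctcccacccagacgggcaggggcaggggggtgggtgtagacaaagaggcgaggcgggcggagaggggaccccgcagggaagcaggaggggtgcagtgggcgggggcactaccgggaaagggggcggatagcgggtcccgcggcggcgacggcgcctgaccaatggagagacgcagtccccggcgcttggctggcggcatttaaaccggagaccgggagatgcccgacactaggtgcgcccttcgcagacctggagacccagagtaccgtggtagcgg
Scg5 promoter: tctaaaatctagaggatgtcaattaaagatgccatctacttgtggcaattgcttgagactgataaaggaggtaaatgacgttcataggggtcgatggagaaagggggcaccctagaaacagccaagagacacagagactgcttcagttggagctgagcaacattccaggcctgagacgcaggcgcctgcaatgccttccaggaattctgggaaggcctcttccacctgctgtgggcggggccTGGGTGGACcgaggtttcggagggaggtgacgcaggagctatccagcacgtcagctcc

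GLI3 peaks lay on both sides of Grem1 and none lay in it. Of the 6 GLI3 peaks, 5 were inside introns of Fmn1 and 1 was at the start site of Arhgap11a, a gene that lies beyond Scg5. The share of listed peaks that passed the FDR threshold was 54.5% (6 of 11, 95% Wilson interval 28.01 to 78.7%) against 42.5% of all listed peaks, and the interval of the members' share contained the latter. All Wilson intervals given here reflect only the number of peaks counted. The density of GLI3 peaks was 5.45 per Mb against 2.67 per Mb over all placed chromosomes, a ratio of 2.04 (0.936 to 4.45), so that the counting interval reached below 1. This interval too reflects only the number of peaks counted and takes no account of how they cluster along the chromosome. On chromosome 2 as a whole the density was 3.39 per Mb.

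**Figure D1:**
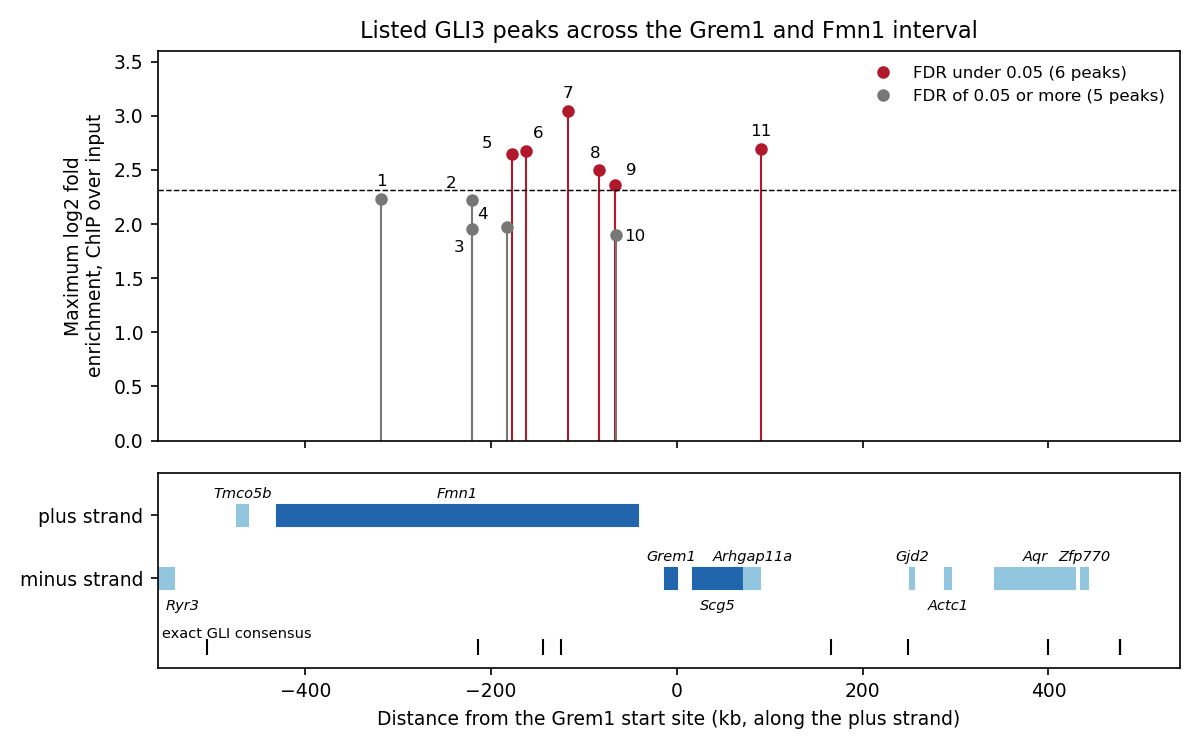
Maximum log2 fold enrichment of ChIP over input (vertical axis, upper panel) of the 11 listed peaks against distance from the Grem1 start site (kb along the plus strand), with the protein-coding genes of the interval and the exact GLI consensus sites (ticks) in the lower panel. The dashed line marks 2.31, the lowest log2 fold enrichment of any GLI3 peak in the list, and the 6 red peaks above it lie at 5 positions in Fmn1 and 1 beyond Scg5.

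Peak 7 was the strongest peak of the interval. It spanned 600 bp (chr2:113640700-113641299, summit 113640987), lay 118 kb from the Grem1 start site and fell in the same region as an element named GRE1 in the study's methods, placed there near Grem1. Its maximum log2 fold enrichment was 3.05, or 8.26-fold over input, its FDR was listed as 0 and its rank was 1872. Over the whole list, 25.7% of GLI3 peaks had a higher log2 fold enrichment, so the strongest peak at this locus was in the upper part of the list and not at its top. By its smallest Poisson p-value it stood at a like place: its −log10 value was 25.8, and 23.8% of GLI3 peaks had a higher one.

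Peaks 6 and 5 followed among the Fmn1 peaks, farther from Grem1. Peak 6 (chr2:113595650-113595999, 350 bp, summit 113595802) lay 163 kb from the Grem1 start site, with a log2 fold enrichment of 2.68, a −log10 Poisson p of 14.6 and an FDR of 0.00228. Peak 5 (chr2:113581300-113581799, 500 bp, summit 113581497) lay 177 kb from it, with a log2 fold enrichment of 2.65, a −log10 Poisson p of 13.4 and an FDR of 0.00417. Both were ordinary GLI3 peaks by enrichment, since 51.1% of GLI3 peaks were higher than peak 6 and 54.3% higher than peak 5.

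The 2 GLI3 peaks in Fmn1 that were nearest to Grem1 were the weakest of the 6. Peak 8 (chr2:113674800-113675099, 300 bp, summit 113674902) lay 83.7 kb from the Grem1 start site, with a log2 fold enrichment of 2.50, a −log10 Poisson p of 11.5 and an FDR of 0.0114. Peak 9 (chr2:113691950-113692199, 250 bp, summit 113692162) lay 66.5 kb from it, with a log2 fold enrichment of 2.36, a −log10 Poisson p of 11.2 and an FDR of 0.0374. For peak 8, 71.4% of GLI3 peaks had a higher log2 fold enrichment, and for peak 9 it was 91.4%, so peak 9 was close to the threshold.

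Peak 11 was the widest of the 11 and lay on the other side of Grem1. It spanned 950 bp (chr2:113848300-113849249, summit 113849012), of which 362 bp lay inside Arhgap11a and 588 bp upstream of it, and its summit was 351 bp upstream of the start site of that gene. Its log2 fold enrichment was 2.70, with 49.6% of GLI3 peaks higher, and its FDR was 0.00228. Its −log10 Poisson p of 24.5 was close to that of peak 7, and by this measure only 25.8% of GLI3 peaks were higher. The 2 measures thus placed peak 11 differently, near the middle of the list by fold and in its upper part by Poisson p. From the Grem1 start site it was 90.4 kb away, with Scg5 between them.

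The other 5 listed peaks, which had an FDR of 0.05 or more, were all in Fmn1. Their log2 fold enrichments ran from 1.90 to 2.23, and they were 150 to 200 bp long. Just outside the threshold, peak 1 (chr2:113440400-113440599) had an FDR of 0.133 and a log2 fold enrichment of 2.23, against 0.0374 and 2.36 for peak 9 just inside it. Peak 1 had a −log10 Poisson p of 15.8, which was above that of 4 of the 6 GLI3 peaks, so the order of the peaks around the threshold depended on the measure. It also lay 502 bp upstream of the start site of an internal Fmn1 transcript (start at 113441064), within its promoter window, and inside an antisense gene, Gm13963. Peak 10 (chr2:113693450-113693599, FDR 0.789, log2 fold enrichment 1.90) was the listed peak nearest to Grem1, at 65.2 kb. Peaks 2 and 3 had summits 230 bp apart, with log2 fold enrichments of 2.22 and 1.96. Peak 4 had one of 1.97.

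**Figure D2:**
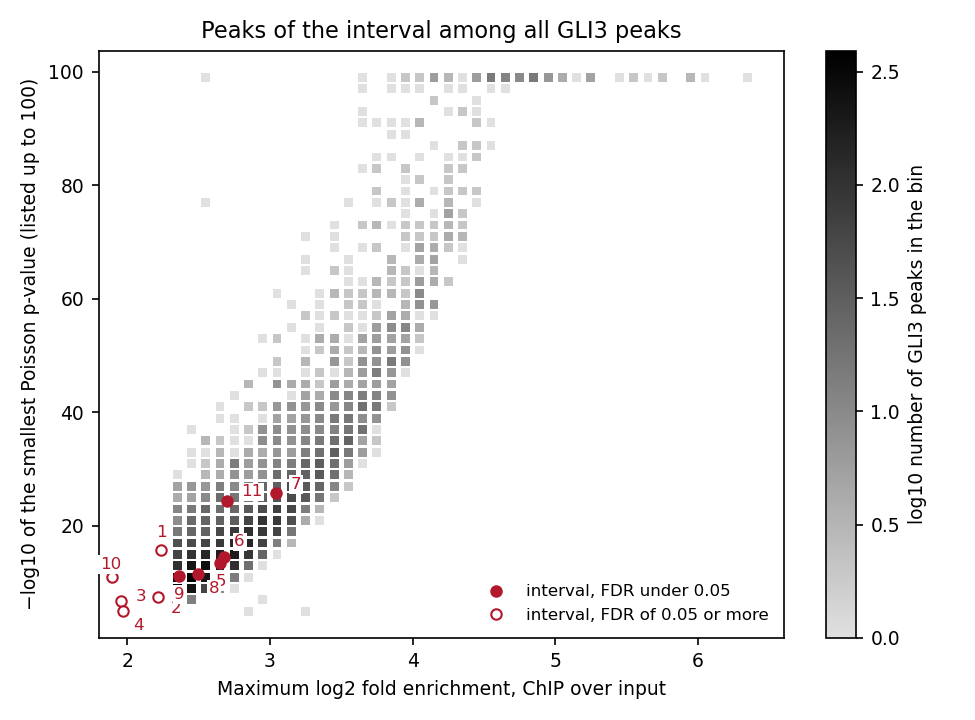
Maximum log2 fold enrichment (horizontal axis) against −log10 of the smallest Poisson p-value (vertical axis, listed up to 100) of the interval's 11 numbered peaks, over a grey map of all 7282 GLI3 peaks in which darker bins hold more peaks. Peaks 7 and 11 stand at like Poisson values of 25.8 and 24.5 but at log2 fold enrichments of 3.05 and 2.70, and peak 1 stands above 4 of the red points while missing the threshold.

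As a set, the 6 GLI3 peaks were of ordinary strength. Their median log2 fold enrichment was 2.66 (2.36 to 3.05), against 2.69 for all GLI3 peaks (interquartile range 2.47 to 3.06) and 2.69 for the 618 on chromosome 2. Their median length was 425 bp against 400 bp, and their median −log10 Poisson p was 14.0 against 16.6. In base composition they were closer to GLI3 peaks away from promoters than to the list as a whole. The median GC content of the 501 bp around the summits was 44.7%, against 58.7% for all GLI3 peaks and 50.3% for distal ones, those outside promoter windows. The ratio of observed to expected CpG was 0.280, against 0.624 and 0.290. Peak 11 at Arhgap11a was the exception, with a ratio of 0.690, while the 5 peaks in Fmn1 ran from 0.1002 to 0.313. Repeats took up 4.59% of the window of peak 7 and 18.8% of that of peak 5, the lowest and highest of the 6.

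The 5 GLI3 peaks in Fmn1 lay in the distal portion of the gene, on the side of Grem1. Of the peaks in Fmn1 that missed the FDR threshold, peaks 1 to 4 lay nearer to its 5′ end than these 5, and peak 10 lay nearer to its 3′ end. Fmn1 runs over 389 kb of the plus strand (113327736 to 113716767), and Grem1 (113746164 to 113758646) lies on the minus strand, with its 3′ end 29.4 kb from the 3′ end of Fmn1. Summits of the 5 GLI3 peaks in Fmn1 ran from 65.2% to 93.7% of the way along the gene and covered 110.7 kb. In a protein-coding Fmn1 transcript with 19 introns (start at 113327782), peak 5 lay in intron 8, peak 6 in intron 12, peaks 7 and 8 in intron 16 and peak 9 in intron 17. Peak 6 was in the shortest of these introns, of 1.16 kb, and peaks 7 and 8 in the longest, of 51.3 kb. Neighbouring GLI3 peaks in Fmn1 were 14.3, 45.2, 33.9 and 17.3 kb apart, and 157 kb separated peak 9 from peak 11. Peak 9 also lay inside an antisense gene, 4930533B01Rik, and 7.07 kb downstream of an internal start site that RefSeq gives for Fmn1 (113685090).

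Each of the 3 genes was placed differently with respect to these peaks. Grem1 had 0 listed peaks in its span of 12.5 kb and 3 GLI3 peaks within 100 kb of its start site, namely peaks 8, 9 and 11. This count was 1 at an FDR under 0.01, 0 within 50 kb and 6 within 250 kb. Over all protein-coding genes, 51.6% had a GLI3 peak within that distance, and 16.2% had at least 3. The nearest GLI3 peak to the Grem1 start site was 66.5 kb away, and 43.3% of protein-coding genes had a nearer one. Peak 7, the strongest, lay beyond 100 kb. Fmn1 had 5 GLI3 peaks within its span, while the nearest to its most upstream start site was 254 kb away. Its internal start sites were closer to a GLI3 peak. Peak 5 lay 140 kb from the one at 113441064, and peak 9 lay 7.07 kb from the one that RefSeq gives at 113685090. Scg5 (113776362 to 113829121) had 0 listed peaks in its span of 52.8 kb, and the nearest GLI3 peak to its start site was peak 11, at 19.9 kb. Which gene a peak acts on was not measured.

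The remaining protein-coding genes of the interval had no GLI3 peak in their spans, apart from the promoter-proximal end of Arhgap11a. On the Fmn1 side these were Tmco5b and the end of Ryr3, the gene for a calcium release channel, whose start sites were 296 and 364 kb from the nearest GLI3 peak. On the other side were Gjd2, a connexin gene (165 kb), Actc1, the cardiac actin gene (204 kb), Aqr, an RNA helicase gene of the spliceosome (326 kb), and Zfp770, a zinc finger gene (352 kb). No peak was listed in the last 451 kb of the interval, which is 41.0% of its length. The nearest GLI3 peaks outside were 1.02 Mb from the first GLI3 peak of the interval, near Aven, and 0.806 Mb from the last, at the start site of Dph6. Over the genome 10.04% of gaps between neighbouring GLI3 peaks were at least 0.806 Mb long, and the median gap was 97.4 kb. The 6 peaks thus formed a group of 268 kb with long stretches on both sides that held no GLI3 peak.

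Promoter peaks made up 52.6% of all GLI3 peaks, where a promoter window reached from 2 kb before to 1 kb after the start site of a protein-coding transcript. In the interval 1 of 6 was one, peak 11 (16.7%, 3.01 to 56.4%). The median distance from a summit to the nearest GENCODE protein-coding start site was 100.7 kb in the interval. It was 1.08 kb for all GLI3 peaks and 45.4 kb for distal ones. These distances leave out the internal Fmn1 start site that RefSeq gives (113685090), 7.07 kb from peak 9. The median was not taken for RefSeq start sites, so 100.7 kb holds for the GENCODE ones alone. The 300-base Grem1 promoter shown above had a GC content of 70.7% and 28 CpG dinucleotides and held neither a listed peak nor a GLI match. No listed peak overlapped the RefSeq promoters of Fmn1 or Scg5 either. Of 32851 RefSeq promoters of the same length, 6.74% held a match with at most 1 mismatch, and Scg5 was among them.

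GLI proteins bind the consensus GACCACCCA, and its reverse complement TGGGTGGTC was searched as well. A match with at most 1 mismatch within 250 bp of the summit was counted as a GLI motif. It was found at 1 of the 6 GLI3 peaks (16.7%, 3.01 to 56.4%), against 20.8% of all GLI3 peaks. Among peaks outside promoter windows it was 1 of 5 (20%, 3.62 to 62.4%) against 24.0%. Both intervals contained the share over the list. Within 100 bp of the summit the motif was at 0 of the 6 against 11.6% of all. The match of peak 7, centred at 100 bp, crossed the edge of that window and was not counted. At an FDR under 0.01 the motif was at 1 of 4 (25%) against 22.0%, so the side of the list on which the share fell depended on the setting. The exact consensus was at 0 of the 6, for which the Wilson interval reaches 39.0% and the usual limit of 3 counts 50%, and at 2.84% of all GLI3 peaks.

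The match in peak 7 was GACCACCTA, a difference of C8T from the consensus with positions counted from 1 at its 5′ end. Its centre was 100 bp from the listed summit, but 12 bp from the window with the lowest Poisson p-value and 62 bp from the window with the highest T statistic, the authors' score behind the rank. The position of the match within the peak thus depended on which of the list's centres was taken. In peak 1 the match was GAACACCCA (C3A), 138 bp from the summit. No other listed peak of the interval held one.

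Letters that other limb factors bind were also searched on both strands within the same windows. The E-box CATCTG or CAGATG, which can be bound by dimers of HAND2, a factor of the posterior limb bud, was in the windows of 2 of the 6 GLI3 peaks (33.3%) against 29.5% of all, namely in peak 5 at 74 bp and in peak 9 at 139 bp from the summit. GGCGCC, a GC-rich SMAD-type motif, was in the window of 1, peak 8, against 27.4% of all. It lay 230 bp from the summit, outside the listed extent of the peak. The windows of the whole list were richer in GC (median 58.7%) than those of the interval (44.7%). A share over distal peaks alone was not taken for this motif. CAATAAA or TTTATTG, of the posterior HOX type, was in 0 of the 6 (Wilson interval up to 39.0%) against 6.56% of all. Among the other listed peaks it was in the window of peak 4, 217 bp from the summit and outside the peak's listed extent. None of these shares stood apart from that of the list by its counting interval. Peaks 6 and 11 held none of the letters searched, and these absences say nothing of the factors.

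**Figure D3:**
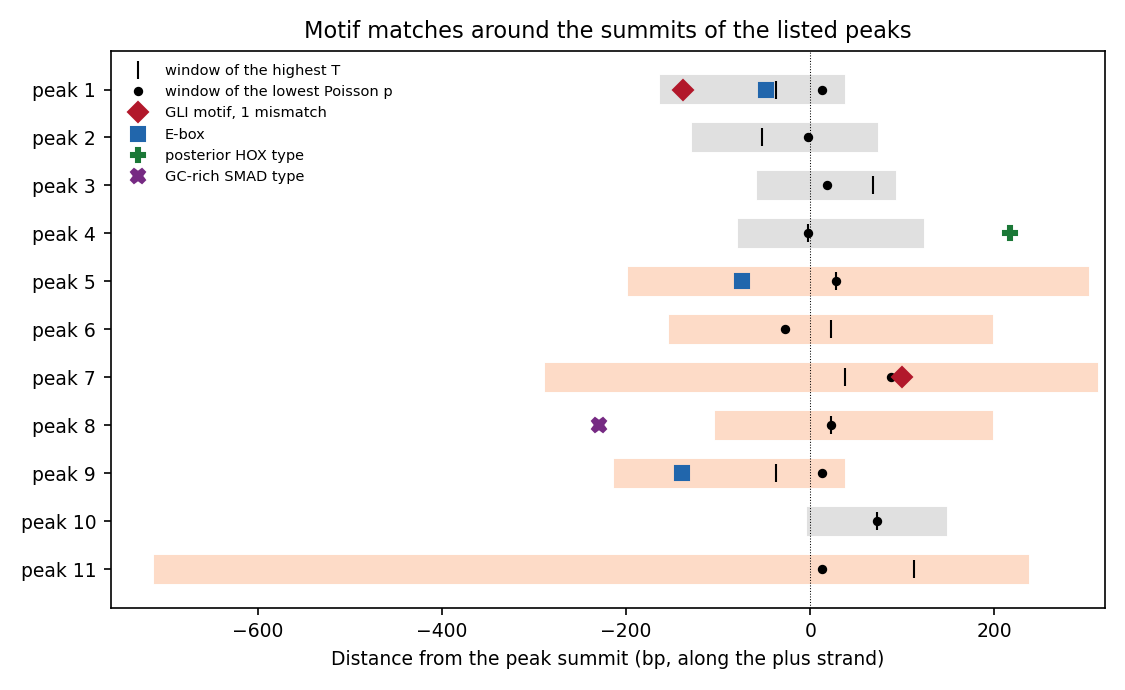
Positions of motif matches and of the caller's best windows relative to the summit (bp along the plus strand, dotted line at 0) for the 11 listed peaks, with each peak's extent as a bar (orange for an FDR under 0.05, grey otherwise). The GLI match of peak 7 (red diamond, 100 bp) sits beside the window of the lowest Poisson p, and peaks 2, 3, 6, 10 and 11 show no motif.

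Most GLI consensus letters in the interval lay outside every peak. It held 10 exact consensus sites, or 9.09 per Mb against 6.80 per Mb over the genome, and 0 of the 10 lay in a listed peak, which by the limit of 3 counts allows up to 30%. Over the genome 1.64% of the 18532 exact sites lay in a GLI3 peak and 2.196% in a listed one, so 0 of 10 is not far from that background. The exact site nearest to Grem1 was at chr2:113634146-113634154 in Fmn1, 124 kb from the Grem1 start site. Beyond Zfp770, 3 sites lay close together, starting at 114235726, 114235813 and 114235871, in unmasked sequence and in the long stretch without a listed peak. With 1 mismatch allowed, the interval held 193 matches, or 1.75 per 10 kb. The summit windows of its GLI3 peaks held 1 in 3006 bp (3.33 per 10 kb), and those of all GLI3 peaks 5.06 per 10 kb.

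To see where this locus differs from other HH loci, intervals of the same length were centred on the start sites of Ptch1, the gene for the SHH receptor, Gli1, an HH-induced transcription factor, and Hoxd13, a posterior limb patterning gene. The Grem1 and Fmn1 interval held 6 GLI3 peaks, against 23 around Ptch1, 18 around Gli1 and 34 around Hoxd13. Median log2 fold enrichments were close to each other, at 2.66 here and 2.67, 2.81 and 2.67 there. The strongest peaks were not: the highest log2 fold enrichment was 3.05 here, 6.05 around Ptch1, 5.76 around Gli1 and 4.31 around Hoxd13. A GLI motif was at 17 of the 23 peaks around Ptch1, 6 of them with the exact consensus, at 8 of 18 around Gli1, and at 9 of 34 around Hoxd13. At promoters were 3, 15 and 14 of these peaks, against 1 of the 6 here. The other 3 intervals were chosen as known HH loci, and no test was made between them.

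**Figure D4:**
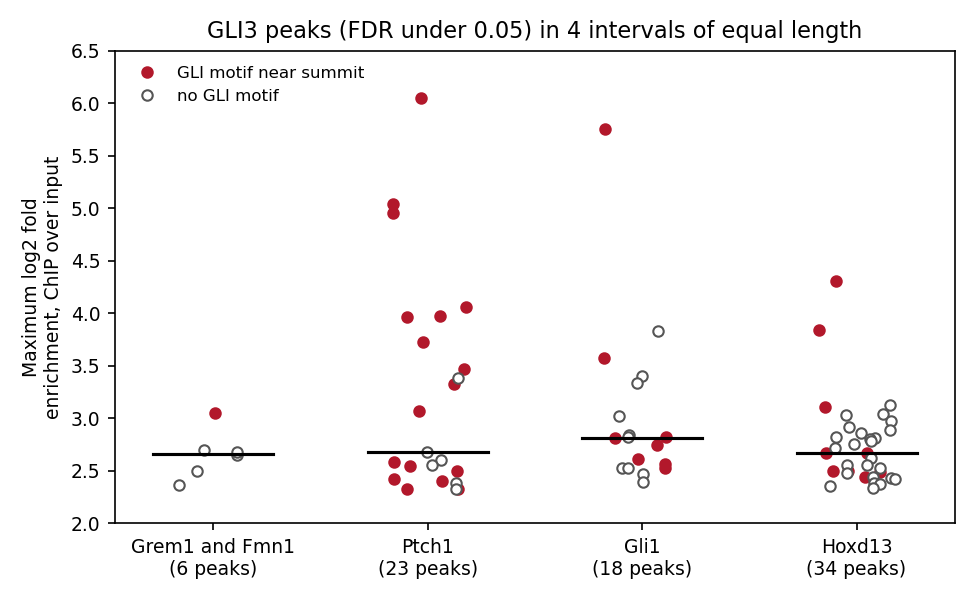
Maximum log2 fold enrichment (vertical axis) of every GLI3 peak in 4 intervals of 1.1 Mb, with a filled point where a GLI motif lay within 250 bp of the summit and a bar at the median. Medians lie between 2.66 and 2.81, while the top peak is 3.05 in the Grem1 and Fmn1 interval and 6.05 around Ptch1.

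Grem1 was last set among the genes of the signalling loop between SHH, GREM1 and FGFs. Of 16 such genes, Grem1 included, 13 had a GLI3 peak within 100 kb of the start site, against 51.6% of all protein-coding genes. For 11 of the 15 genes other than Grem1 the nearest GLI3 peak was closer than that of Grem1, as it was for 43.3% of all protein-coding genes. Among the HH components, Ptch1 had 7 peaks, Gli1 had 3 and Gli3 itself had 1 within 100 kb, with nearest summits 0.687, 0.342 and 0.004 kb from the start sites. Shh had none within 100 kb, its nearest being 150 kb away. Among the BMP ligands that GREMLIN1 can bind, Bmp7 had 4 (nearest 6.28 kb), Bmp2 had 1 (83.5 kb) and Bmp4 had none (215 kb). Msx2, a BMP target gene, also had none (152 kb). Of the ridge FGF genes, Fgf4 had 4 (nearest 53.9 kb), Fgf9 and Fgf17 had 3 each (1.72 and 6.56 kb) and Fgf8 had 1 (40.3 kb). Hand2 and Tbx3, both factors of the posterior limb bud, had 4 each (7.63 and 0.492 kb), and Spry4, an inhibitor of FGF signalling, had 4 (0.017 kb). The strongest peak within 100 kb of Grem1 was peak 11 with a log2 fold enrichment of 2.70. This was lower than the strongest peak within 100 kb of each of the other 12 genes that had one, which ran from 2.78 at Fgf9 to 6.05 at Ptch1. This order holds for the 100 kb limit alone. Peak 7, left out by it at 118 kb, had a log2 fold enrichment of 3.05, above the values at Fgf9 and Gli3 (2.82), and wider distances were not compared for the other genes.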

How the data were processed

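The libraries were 2 GLI3-FLAG ChIP replicates and 1 input. Per the submitters' processing notes, reads were aligned with Bowtie2 2.2.5 to mm10; alignment settings are not given in the sources used here. The authors called peaks with CisGenome from both replicates against input and deposited 1 list. Its deposited values are the FDR (a q-value), the largest log2 fold enrichment in the peak, a T statistic (a score that sets the rank) and a −log10 Poisson p-value (the smallest in the peak, up to 100). Coordinates are printed as listed. Peaks with an FDR under 0.05 were called GLI3 peaks.

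Summits were joined to GRCm38.p6 sequence, GENCODE and RefSeq start sites with Python 3.11.15, pandas 2.3.3 and scipy 1.17.1, and motifs were searched on both strands. The motif and promoter counts were tested on simulated data with planted matches. No hypothesis test was made. Described singly were the members, genes touching the interval, the 3 compared loci and the 16 loop genes, by a rule fixed with the design. The members, lists and alternatives were chosen with earlier results of these data known. Precision is limited by the few peaks and, for single peaks, by read numbers that the list does not give.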

Additional observations from a re-analysis of the deposited data

How the results depend on the processing

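Of 26 alternative settings over 6 results, 19 kept the value within 1.5 times or within its counting interval. The motif share, 16.7% against 20.8% of all GLI3 peaks, stood above the list instead at an FDR under 0.01 (25% against 22.0%) and with every listed peak (18.2% against 17.9%), so its side of the list was not fixed. The number of GLI3 peaks became 11 with every listed peak and 4 at an FDR under 0.01. The share with a GLI motif became 0% with the exact consensus alone, 0% within 100 bp of the summit (11.6% of all GLI3 peaks) and 100% with at most 2 mismatches (82.7% of all), the last chosen after seeing the data. At 100 bp the match of peak 7 was lost because it crossed the window's edge. The number within 100 kb of the Grem1 start site became 1 at an FDR under 0.01, 6 within 250 kb and 0 within 50 kb. Fewer or more peaks or bases are admitted by construction in each. The density ratio ran from 1.59 to 2.00, and peak 7 ranked 1733 by Poisson p-value. No paired analysis was possible because both replicates were merged into joint calls, and for the same reason leaving out each replicate was not run.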
